A study of Mus musculus with 48 samples.

Results

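MTREX and NRDE2 are nuclear proteins that bind each other, and each was removed from mouse embryonic stem cells (mESCs) of its own conditional line. The comparison described here is the difference between their effects on each gene's RNA, that is, the log2 fold change of *Mtrex*-KO over its wild type (WT) minus that of *Nrde2*-KO over its WT. A positive difference means that the RNA was higher, relative to its own WT, after MTREX loss than after NRDE2 loss. Every gene whose mean reached 0.5 CPM, which scales reads to a fixed library total, over the 20 RNA-seq libraries without cycloheximide was included, which gave 14889 of the 55335 genes in the table. Of the rest, 21713 were above 0 in at least 1 of these libraries and 18733 were at 0 in all. The lowest mean tested was 0.5002 CPM and the highest not tested was 0.4990 CPM. Of the 14889 genes, 296 reached the minimum only through the *Mtrex*-KO libraries and were therefore bound to be higher there, so counts are also given for genes at or above 0.5 CPM over the 4 WT libraries.

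All cells were male mESCs of mixed 129 and C57BL/6 background that carry a Cre recombinase activated by 4-hydroxytamoxifen (4OHT), grown in serum with LIF and 2 kinase inhibitors. *Nrde2*-KO cells received 4OHT at 100 nM for 4 d, which deletes the part of *Nrde2* between 2 loxP sites, and *Mtrex*-KO cells received the same dose for 3 d, which deletes a floxed part of *Mtrex*. The WT cells of each line are the same conditional cells without 4OHT, so that 4OHT itself and Cre activity are part of each effect. A CCDC174 comparison read later used no 4OHT. Its cells carry a *Ccdc174*-FKBP12F36V fusion and were depleted of CCDC174 with the dTAG-13 compound, against the same fusion cells without that compound. The study reports minor effects of this tag itself on gene expression. The line list of the study gives the conditional *Mtrex* line as one that also carries a tagged *Nrde2* allele. Line, days of 4OHT and deleted gene cannot be told apart in the difference between effects. Each group has 2 libraries of total RNA depleted of ribosomal RNA, and nothing in the labels says that the 2 came from separate derivations, so p-values measure the spread between these libraries only.

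MTREX is the RNA helicase that feeds nuclear RNA to the exosome, a 3′ to 5′ exonuclease complex. It works with adaptor proteins and removes promoter upstream transcripts, enhancer RNAs, introns and faulty RNA precursors in the nucleus. NRDE2 binds MTREX, but also binds U1 snRNA, the RNA that pairs with the 5′ splice site (5′SS) at the start of an intron, and helps introns whose 5′SS pairs poorly to be spliced.

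The reads in genes were between 28767829 and 33814363 in these 8 libraries. They made up between 82.7 and 89.3% of the total that the authors used for scaling in 7 libraries and 72.1% in *Mtrex*-KO replicate 1. In the *Mtrex*-KO libraries *Gm26917*, a noncoding gene in a region of chromosome 17 that resembles ribosomal RNA genes, took 16.6 and 8.89% of the reads in genes, against 3.31 and 3.16% in *Mtrex*-WT and between 1.15 and 1.802% in the 4 *Nrde2* libraries. CPM were therefore divided by a median-of-ratios factor, which centres each library on the bulk of its genes, and the median difference of effects over all genes was 0.01. Replicates agreed least in *Mtrex*-KO, where the median absolute log2 difference between the 2 libraries was 0.25 against 0.12 to 0.15 in the other 3 groups. The targeted transcripts fell in their own line. *Mtrex* was at 43.4 and 39.5 normalized CPM in *Mtrex*-KO and at 114 and 107 in its WT, and *Nrde2* was at 18.2 and 19.4 in *Nrde2*-KO and at 40.0 and 38.6 in WT. *Nrde2* changed by −0.16 (SE 0.09) on the log2 scale in *Mtrex*-KO, and *Mtrex* by −0.30 (SE 0.09) in *Nrde2*-KO. The 7 markers of mESCs, including *Pou5f1*, *Sox2* and *Nanog*, summed to 3950 and 4639 normalized CPM in *Mtrex*-KO against 5299 and 5340. In *Nrde2*-KO they summed to 3708 and 3940 against 4671 and 4891, so the sum was lower than in WT in both knockouts. Single markers varied. In *Nrde2*-KO *Tfcp2l1* changed by −0.69 on the log2 scale, *Nanog* by −0.11 and *Klf4* by 0.02. In *Mtrex*-KO *Nanog* changed by −1.05 and *Esrrb* by 0.13. The difference was called by limma for none of the 7 markers, although that of *Nanog* was −0.94 (adjusted p = 9.7e-04). Primitive endoderm markers summed to between 16.9 and 21.3 in the knockouts and to between 9.88 and 12.1 in WT. Markers of 2C-like cells, the rare cells that resemble the embryo at its earliest divisions, summed to 88.3 and 236 normalized CPM in *Mtrex*-KO and to at most 27.8 in *Nrde2*-KO. Trophectoderm markers summed to between 33.5 and 36.2 in *Mtrex*-KO and to between 11.4 and 17.1 in the other groups. *Eomes* made up a large part of these sums and changed by −0.35 on the log2 scale in *Nrde2*-KO. *Gata3* and *Cdx2* rose in both knockouts, by 2.25 and 1.56 in *Mtrex*-KO and by 1.35 and 1.30 in *Nrde2*-KO. Fibroblast markers were between 1.78 and 3.54 in every library. The part of these cell states in the results was not tested, and in bulk RNA a change in the number of cells of a kind and a change in the RNA per cell cannot be told apart.

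The difference of effects was tested with limma in all 20 libraries, with Benjamini-Hochberg adjustment, and a difference was called where the adjusted p lay under 0.01 and its size on the log2 scale exceeded 1. The fit used 1 spread per gene for all 10 groups, although replicates agreed least in *Mtrex*-KO. Errors and intervals of the MTREX effect and of the difference may therefore be too narrow, and their calls too many. The difference was called for 2775 genes (18.6% of 14889). After MTREX loss 1687 genes were higher relative to NRDE2 loss (11.3%) and 1088 were lower (7.31%). With CPM scaled as deposited, where the median difference over all genes was −0.42, 60.8% of calls being higher turned into 28.9%, so the balance between both directions rests on the scaling. The single effects differed in extent, with 3970 genes called in *Mtrex*-KO (26.7%; 15.4% higher and 11.3% lower) and 747 in *Nrde2*-KO (5.02%; 2.88% higher and 2.14% lower).

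The 2775 genes were divided by their 2 single effects. Opposite genes are those called in both knockouts with opposite signs, and there were 16 that rose in *Mtrex*-KO and fell in *Nrde2*-KO and 16 that did the reverse (0.107% of all genes each, 0.215% in all). The 32 became 14 or 20 without *Nrde2*-WT replicate 1 or 2, 18 or 16 without *Nrde2*-KO replicate 1 or 2, 8 with a pseudocount of 1 and 15 with no filter on low values. With CPM as deposited 8 genes rose and 28 fell in *Mtrex*-KO in place of 16 and 16. One-sided genes are those called in 1 knockout whose effect in the other had a 95% interval within −1 to 1, which bounds the other effect without showing that it is absent. MTREX loss alone raised 931 genes (6.25%) and lowered 686 (4.61%), together 10.9%, and NRDE2 loss alone raised 24 (0.161%) and lowered 38 (0.255%), together 0.416%. A further 142 genes were called in both knockouts with the same sign, 120 up and 22 down, and in 141 of them the effect of MTREX loss was the larger. The remaining 922 could not be placed. In 483 of these the MTREX effect was called and the interval of the NRDE2 effect reached beyond 1 or −1, in 33 the roles were exchanged, and in 406 neither effect was called by itself. In all 406 the point estimates of the 2 effects had opposite signs. A called difference without a called single effect nearly requires this, so these genes are not counted as opposite.

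**Figure D1:**
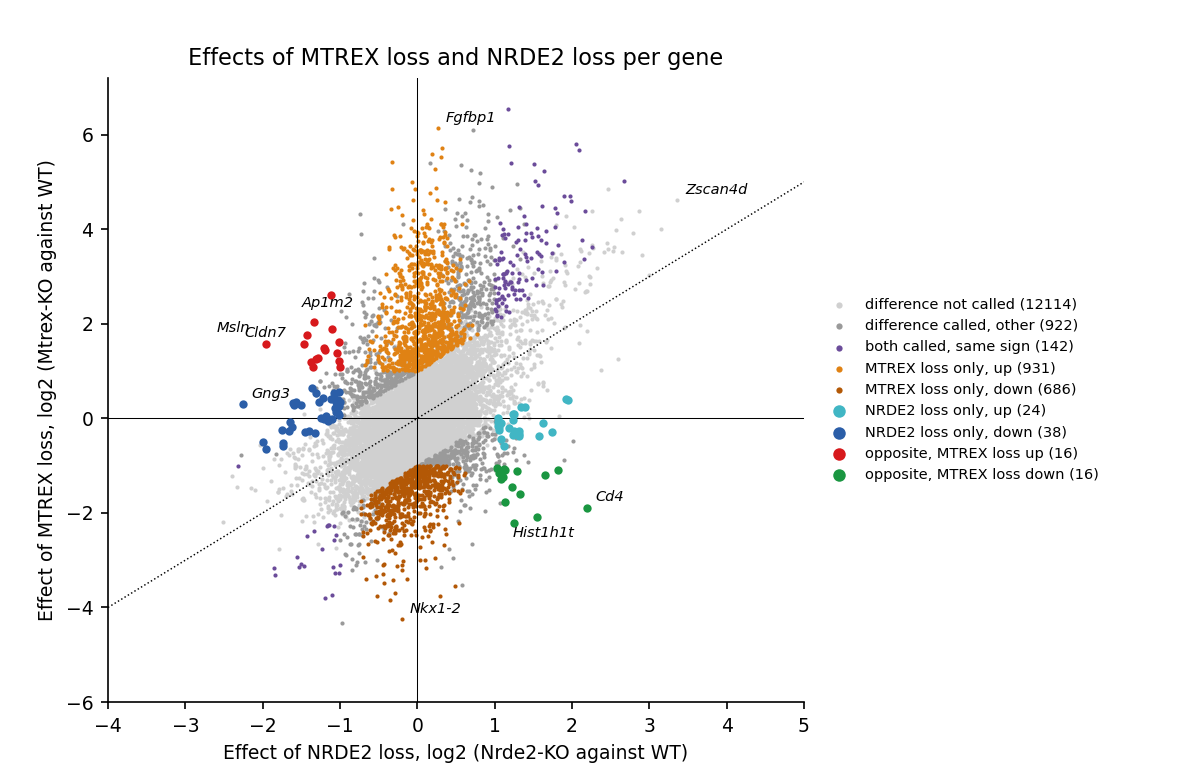
Log2 fold change of each of the 14889 genes in *Nrde2*-KO (horizontal) and *Mtrex*-KO (vertical), each against its own WT, with colours for the classes and the number of genes in each. Genes on the dotted line have equal effects. The 32 opposite genes lie in the upper left and lower right, the 62 genes of NRDE2 loss alone lie along the horizontal axis, and the 1617 genes of MTREX loss alone lie along the vertical axis.

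The genes that rose in *Mtrex*-KO and fell in *Nrde2*-KO included several that serve epithelial cells. *Ap1m2* (chr9:21294275-21312337, minus strand) encodes a subunit of the AP-1B adaptor that sorts proteins to the basolateral membrane of epithelia. *Ap1m2* was at 45.7 and 64.4 normalized CPM in *Mtrex*-KO against 12.8 and 13.3 in its WT, and at 6.13 and 6.31 in *Nrde2*-KO against 15.7 and 16.5. The groups of each line did not overlap, which is likely for any gene chosen by calls in both knockouts. Its log2 fold change was 2.04 after MTREX loss and −1.33 after NRDE2 loss, a difference of 3.37 (SE 0.25, 95% interval 2.84 to 3.91, adjusted p = 3.8e-08).

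*Msln* (chr17:25748613-25754378) encodes mesothelin, a surface protein of mesothelial and several epithelial cells. *Msln* was at 14.1 and 14.8 normalized CPM in *Mtrex*-KO against 3.85 and 5.74, and at 1.35 and 1.25 in *Nrde2*-KO against 6.82 and 4.85. The difference of effects was 3.52 (SE 0.28, adjusted p = 5.1e-08). *Cldn7* (chr11:69964779-69967885) encodes claudin 7 of the tight junction, and rose from 3.59 and 4.44 to 11.2 and 17.6 in *Mtrex*-KO and fell from 7.17 and 7.498 to 2.62 and 2.51 in *Nrde2*-KO. Its difference was 3.19 (SE 0.37, adjusted p = 3.0e-06). *Crb3* (chr17:57059105-57065918), a Crumbs protein of the apical membrane, rose from 6.08 and 6.48 to 14.6 and 16.8 and fell from 9.96 and 9.40 to 3.77 and 3.85, a difference of 2.57 (SE 0.28, adjusted p = 1.4e-06). *Esrp1* (chr4:11331933-11386783) encodes an RNA-binding protein that sets epithelial splicing patterns. It had the largest difference of the 16, 3.72 (SE 0.32, adjusted p = 1.3e-07), with 9.19 and 6.67 normalized CPM in *Mtrex*-KO against 1.13 and 1.03, and 0.986 and 0.980 in *Nrde2*-KO against 2.80 and 2.10. In all 5 genes both libraries of each knockout lay outside the range of their WT libraries. The choice of genes called in both knockouts makes this likely, so it adds no support.

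The other genes of this direction have varied roles. *Runx1t1*, a transcriptional corepressor, had a difference of 3.04 (SE 0.43), and *Crabp2*, which carries retinoic acid to the nucleus, 2.698 (SE 0.34). *Naprt*, an enzyme of NAD synthesis, had a difference of 2.65 and shares exonic sequence on its strand with another annotated gene, so its value is uncertain. *Pou4f2*, a transcription factor of retinal ganglion cells, had 2.58, the metalloreductase gene *Steap2* 2.56 and *Nrp2*, a semaphorin and VEGF coreceptor, 2.43. The set is completed by *Bnc2*, *2310039H08Rik*, *Nhs*, *Prph*, a neuronal intermediate filament gene, and *Slc30a2*, a zinc transporter gene, with differences between 2.10 and 2.99. All 16 are protein coding, and all 16 were at or above 0.5 CPM over the 4 WT libraries.

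The promoters of 3 of these epithelial genes are printed because they hold the E-box CACCTG, the sequence bound by ZEB and SNAIL repressors of epithelial genes, more than once. They are RefSeq sequences of GRCm38.p6 from 250 bases before to 50 bases after a transcript start, on the strand of the gene, and capitals mark CACCTG or its reverse complement CAGGTG. Where a gene has several starts, the promoter with the most matches is printed, which need not be the main one. The printed regions of *Cldn7* and *Crb3* lie inside the annotated gene. The 3 regions are chr9:21312284-21312583 (minus strand), chr11:69965171-69965470 (plus strand) and chr17:57061951-57062250 (plus strand).
Ap1m2: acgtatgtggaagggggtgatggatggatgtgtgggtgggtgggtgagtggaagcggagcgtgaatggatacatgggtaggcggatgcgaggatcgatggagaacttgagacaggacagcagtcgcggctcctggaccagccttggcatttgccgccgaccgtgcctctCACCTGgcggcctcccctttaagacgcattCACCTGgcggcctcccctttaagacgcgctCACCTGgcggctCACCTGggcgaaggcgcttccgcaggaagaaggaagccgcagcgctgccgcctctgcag
Cldn7: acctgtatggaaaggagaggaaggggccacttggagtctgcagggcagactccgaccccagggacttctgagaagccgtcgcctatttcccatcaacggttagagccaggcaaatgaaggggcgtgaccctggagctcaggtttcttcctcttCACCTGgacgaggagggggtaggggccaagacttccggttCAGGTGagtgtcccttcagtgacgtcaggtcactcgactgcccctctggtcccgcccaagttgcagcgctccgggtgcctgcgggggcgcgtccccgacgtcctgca
Crb3: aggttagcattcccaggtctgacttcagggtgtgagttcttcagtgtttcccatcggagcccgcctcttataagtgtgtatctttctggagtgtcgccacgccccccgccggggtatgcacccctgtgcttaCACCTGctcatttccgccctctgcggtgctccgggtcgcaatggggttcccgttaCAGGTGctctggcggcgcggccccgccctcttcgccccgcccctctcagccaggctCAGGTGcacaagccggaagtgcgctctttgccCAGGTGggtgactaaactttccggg

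The printed promoters hold 4, 2 and 4 matches. A promoter was given for 11 of the 16 genes, and 5 of the 11 held at least 1 match, *Nhs* and *Slc30a2* being the others. A match at any start of a gene counted, here and in the shares that follow. Among the 16 genes of the reverse direction 12 had a promoter and 2 held a match, and over the tested genes with a promoter the share was 21.8% of 10617. These are matches of letters, chosen for printing after they were found, and no binding was measured. *Zeb1*, which encodes one of the proteins known to bind this E-box, was at 14.1 and 13.1 normalized CPM in *Mtrex*-KO against 25.2 and 25.2 in its WT, and at 28.9 and 28.3 in *Nrde2*-KO against 25.5 and 24.5. Its effects were −0.88 and 0.19 and their difference −1.07 (SE 0.13, adjusted p = 4.1e-06). The part of *Zeb1* in the levels of the opposite genes was not tested.

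Further epithelial genes, chosen after their values were seen, had a positive difference with 1 effect below the threshold. *Krt8*, a keratin of simple epithelia, was at 173.6 and 179 normalized CPM in *Mtrex*-KO against 29.3 and 52.6, and at 26.8 and 29.1 in *Nrde2*-KO against 38.9 and 45.4 (difference 2.74, SE 0.33). *Cldn6*, *Cldn4* and *Cdh1*, which encode 2 claudins and E-cadherin, belonged to the genes raised by MTREX loss alone, with differences of 2.82, 1.72 and 1.25. *Epcam*, an epithelial adhesion gene, belonged to those lowered by NRDE2 loss alone, from 54.8 and 54.6 to 25.5 and 28.6 normalized CPM, with 54.4 and 63.0 in *Mtrex*-KO against 37.3 and 42.4. Not every such gene followed. The difference of *Ocln*, another tight junction gene, was 0.29 and not called, and *Vim*, an intermediate filament gene of mesenchymal cells, also had a positive difference of 1.88, with 26.6 and 21.9 in *Nrde2*-KO against 56.7 and 55.5.

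The 16 genes that fell in *Mtrex*-KO and rose in *Nrde2*-KO were mostly of low level. *Cd4* (chr6:124864692-124888221), known as the T cell coreceptor, had the largest difference, −4.09 (SE 0.33, 95% interval −4.78 to −3.39, adjusted p = 7.1e-08). *Cd4* was at 0.293 and 0.0990 normalized CPM in *Mtrex*-KO against 1.36 and 1.36, and at 10.8 and 9.25 in *Nrde2*-KO against 2.51 and 1.56. *Hist1h1t* (chr13:23695814-23696725), a linker histone gene of male germ cells that lies in a histone cluster, fell from 3.83 and 6.31 to 0.684 and 1.35 and rose from 4.75 and 5.30 to 15.3 and 15.0, a difference of −3.63 (SE 0.33, adjusted p = 2.7e-07). *Scara5*, a ferritin receptor gene, fell from 5.16 and 7.81 to 1.47 and 0.924 and rose from 3.29 and 2.47 to 7.21 and 7.13 (difference −3.47, adjusted p = 4.6e-06). The groups of each line did not overlap in these 3 genes, which again follows largely from their choice.

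*Mc5r*, a melanocortin receptor gene, had a difference of −2.94, and *Hmcn1*, which encodes an extracellular matrix protein, −2.90. *Raet1d*, a ligand of the NKG2D receptor of natural killer cells, had −2.86, *Sp100*, a nuclear body protein gene, −2.68, and *Csf3r*, the receptor of granulocyte colony-stimulating factor, −2.40. *Raet1d* and *Sp100* overlap other genes on their strand and are uncertain. The other 8, among them *Cyp2c70*, which hydroxylates bile acids, and *Slc17a7*, a vesicular glutamate transporter gene, had differences between −2.90 and −2.08. Of the 16, 14 were at or above 0.5 CPM over the 4 WT libraries, and the other 2 began near the lower limit of the test.

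The effects that chose the opposite genes come from these 8 libraries, and 3 other comparisons were also examined. The RNA-seq libraries of the first and the last were among the 20 that set the filter and the spread of the fit, and Ribo-seq was fitted separately. The untreated cultures of a cycloheximide experiment form a further *Nrde2*-KO and WT comparison. There 16 of the 16 genes that had fallen were below 0 (50.1% of all genes were), with 11 called lower (2.47%) and a median log2 fold change of −1.20. Of the genes that had risen 16 of 16 were above 0 (49.9% of all genes were), with 10 called higher (2.34%) and a median of 1.23. *Ap1m2*, for example, was at 6.39 and 4.03 normalized CPM in the second *Nrde2*-KO against 15.6 and 13.0, and *Cd4* at 9.54 and 10.7 against 2.15 and 1.41. In Ribo-seq, which counts the RNA under ribosomes, 12 of 13 tested genes of the first set were below 0 in *Nrde2*-KO and 6 were called lower (50.3% and 2.91% of the genes tested in both assays), and 12 of 12 of the second set were above 0 and 5 were called higher (49.7% and 3.37%). The exception in Ribo-seq was *Crb3*, at 0.23. In cells depleted of CCDC174, a splicing protein that works with NRDE2, 14 of the 16 genes of the first set were below 0 and 4 were called lower (47.1% and 1.18% of all genes), and 12 of the 16 of the second set were above 0 and 1 was called higher (52.9% and 0.222%). For MTREX loss no second experiment was analysed here.

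The choice and the reading were then separated, an alternative chosen after seeing the data. The filter and the fit were restricted to the 8 libraries, which left 12 opposite genes that fell in *Nrde2*-KO and 10 that rose, and the other 12 libraries were fitted by themselves. In the second *Nrde2*-KO experiment 12 of the 12 were below 0 (49.6% of all genes) and 10 were called lower (2.47%), and 10 of the 10 were above 0 (50.4%) and 8 were called higher (2.63%). After CCDC174 depletion 10 of the 12 were below 0 (48.3%) and 3 were called lower (1.15%). Of the 10 only 6 were above 0 there (51.7%) and limma called 0 higher (0.23%), with 2 higher and 2 lower at an unadjusted p below 0.05.

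**Figure D2:**
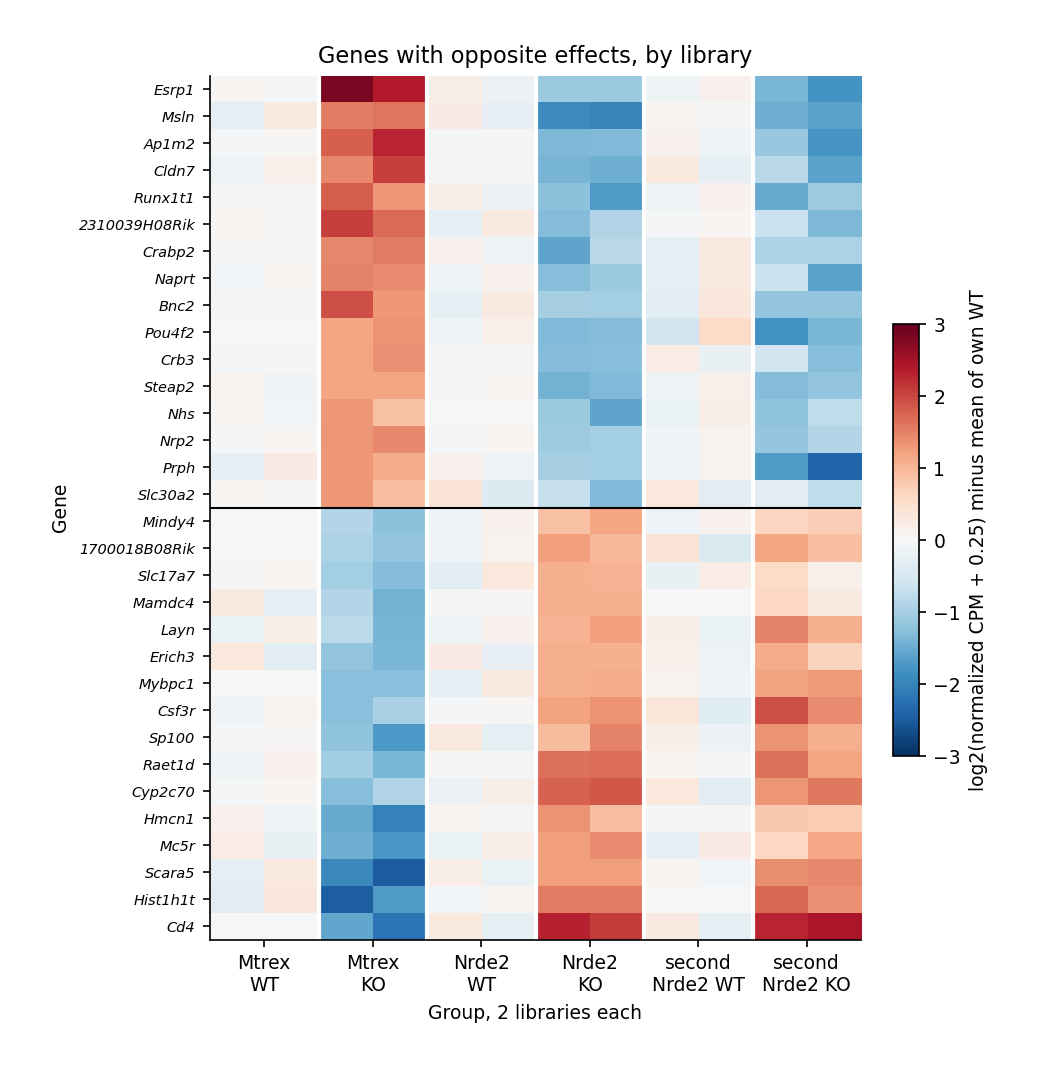
Log2(normalized CPM + 0.25) of the 32 opposite genes in each library minus the mean of the WT libraries of its own experiment, in colour from −3 to 3. The columns are the 2 libraries of each group, and the black line parts the 16 genes that rose in *Mtrex*-KO from the 16 that fell. Both libraries of the second *Nrde2*-KO, whose effect was not used to choose the genes, have the colour of the first *Nrde2*-KO in most rows.

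NRDE2 loss alone lowered 38 genes, all of them protein coding. The genes named first are among those with the largest falls. *Gng3* (chr19:8836933-8839194), a G protein gamma subunit gene of neurons, was at 1.85 and 2.14 normalized CPM in *Nrde2*-KO against 9.99 and 10.96, and at 12.1 and 19.4 in *Mtrex*-KO against 12.4 and 12.3. Its effects were −2.26 and 0.30, and the difference was 2.56 (SE 0.29, adjusted p = 2.2e-06). *Haus7* (chrX:73437315-73459044), a subunit of the augmin complex that nucleates spindle microtubules, fell from 37.3 and 38.8 to 9.23 and 9.45, with 19.7 and 27.7 in *Mtrex*-KO against 30.8 and 35.8 (difference 1.49, SE 0.18, adjusted p = 5.0e-06). For *Haus7* both *Mtrex*-KO libraries were also below both of their WT libraries, with an MTREX effect of −0.50 on the log2 scale, so one-sided here means a smaller effect of MTREX loss and not its absence.

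*Calca*, the calcitonin gene, and *H2-D1*, a major histocompatibility gene that belongs to a family of near-identical copies and is uncertain, also fell, with NRDE2 effects of −1.75 and −1.74. Several of the others are highly expressed genes of general cell function. *Gcn1l1*, whose protein activates the kinase GCN2 at ribosomes, fell from 247 and 226 normalized CPM to 102 and 96.9 and was at 257 and 214 in *Mtrex*-KO against 262 and 210, so that its MTREX effect was 0.00. *Agrn*, the proteoglycan agrin, fell from 228 and 190 to 99.9 and 98.0 and was at 297 and 247 in *Mtrex*-KO against 243 and 221. *Dlst*, a subunit of the 2-oxoglutarate dehydrogenase of the citric acid cycle, fell from 131 and 118 to 50.2 and 48.8, and was at 94.4 and 102 against 119 and 127. The unconventional myosins *Myo1c* and *Myo7a*, the motor protein regulator gene *Ift172* of cilia, the tyrosine breakdown gene *Fah* and the lipid transfer protein gene *Pltp* are further members, with differences between 1.10 and 1.92. Over the 38 genes the NRDE2 effect lay between −2.26 and −1.001.

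The structure of these 38 genes was not used in their choice. Their longest annotated transcripts had a median of 14.5 exons, against 9 over all protein coding genes tested, and 27 of the 38 (71.1%) had 10 or more exons, against 48.2%. The median of their median intron lengths was 578 bases against 1480, and 26 of the 38 (68.4%) had a median intron under 1000 bases, against 35.0%. Annotated 5′SSs were compared with caggtaagt, the 9 bases that pair fully with the 5′ end of U1 snRNA. The median share of 5′SSs with 5 or fewer matching bases was 19.4% of a gene's sites in the 38 genes and 15.4% in all protein coding genes. The mean number of matching bases per gene differed little, with a median of 6.27 against 6.38. The 21 protein coding genes that NRDE2 loss alone raised had 8 exons in the median, introns of 975.5 bases and a share of such sites of 20%, so the higher share was not particular to the 38. The 645 protein coding genes lowered by MTREX loss alone had 8 exons, introns of 1442.5 bases and a share of 14.3%. The 604 that MTREX loss alone raised had a share of 16.7%. The 16 opposite genes that fell in *Nrde2*-KO had 8.5 exons, introns of 983 bases and a share of 12.5%. The higher share and exon number were therefore not seen in every class lowered by NRDE2 loss. The levels are per gene, and which intron was affected was not measured here.

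The least matching 5′SS of *Haus7* and of *Gng3* is shown to place these sites beside the U1 sequence. Each holds the last 3 bases of an exon and the first 6 of an intron, capitals mark bases that differ from the U1 complement, and the sites were read from GRCm38.p6 at chrX:73457968-73457976 and chr19:8838548-8838556, each on the minus strand.
U1 complement: caggtaagt
Haus7: ACggtaaTG
Gng3: AaggtGGgt
*Haus7* has 9 annotated 5′SSs, 2 of which match at only 5 bases. *Gng3* has 2, and its less matching site has 6 matches.

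The 38 genes were also read in comparisons whose effects did not choose them. In the second *Nrde2*-KO experiment 38 of 38 were below 0 and 31 were called lower, against 2.47% of all genes. In Ribo-seq 35 of 36 were below 0 and 22 were called lower, against 2.91%. After CCDC174 depletion 37 of 38 were below 0 and 21 were called lower, against 1.18%, with a median log2 fold change of −1.04 where the median of all genes was 0.02. *Haus7* changed by −1.57 in *Ccdc174-dTAG* and *Gng3* by −1.61. *Zc3h6*, a zinc finger gene, was the exception there, with 0.84 after CCDC174 depletion and −0.02 in the second *Nrde2*-KO, and *Unc13a* the one in Ribo-seq, at 0.06. *Zc3h6* overlaps another gene on its strand, as *Gcn1l1* does, and both are uncertain. The 16 opposite genes that fell in *Nrde2*-KO had a median of −0.49 after CCDC174 depletion. With the filter and the choice made in the 8 libraries alone there were 33 genes in place of 38, and in the fit of the other 12 libraries 33 of 33 were below 0 in the second *Nrde2*-KO with 27 called lower, and 33 of 33 after CCDC174 depletion with 18 called lower. The 38 became 22 with CPM as deposited.

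NRDE2 loss alone raised 24 genes, with effects between 1.04 and 1.95. The number was unstable, with 11 genes without *Nrde2*-KO replicate 2, 12 with only the 8 libraries, 13 by DESeq2, 10 with a pseudocount of 1 and 48 with CPM as deposited. *Nedd9*, a scaffold protein of focal adhesions, rose from 0.583 and 0.668 normalized CPM to 2.96 and 3.17, with 0.978 and 1.09 in *Mtrex*-KO against 0.603 and 0.844 (difference −1.51, adjusted p = 6.5e-04). *Sh3bp5*, an activator of RAB11, rose from 1.11 and 1.76 to 4.76 and 4.92, with 2.48 and 2.84 in *Mtrex*-KO against 3.01 and 2.69 (difference −1.72, adjusted p = 5.1e-04). *Abcg3*, a transporter gene, *Gfra3*, a coreceptor gene of the GDNF family, and *Col27a1*, a fibrillar collagen gene, had NRDE2 effects of 1.74, 1.58 and 1.39, and the largest, 1.95, was that of the predicted gene *Gm9732*. *Pramel6*, known from naive mESCs, rose from 10.5 and 13.1 to 23.4 and 28.2, with 6.03 and 6.47 in *Mtrex*-KO against 8.70 and 10.5. Most of the 24 genes were of low level. In the second *Nrde2*-KO experiment 24 of 24 were above 0 and 13 were called higher, against 2.34% of all genes. Of the 12 chosen in the 8 libraries alone, 12 were above 0 there and 8 were called higher in the fit of the other 12 libraries. In Ribo-seq 20 of 20 tested were above 0 and 4 were called higher, against 3.37%. After CCDC174 depletion 19 of 24 were above 0 and limma called 0 higher, with 4 higher at an unadjusted p below 0.05 and a median of 0.27.

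**Figure D3:**
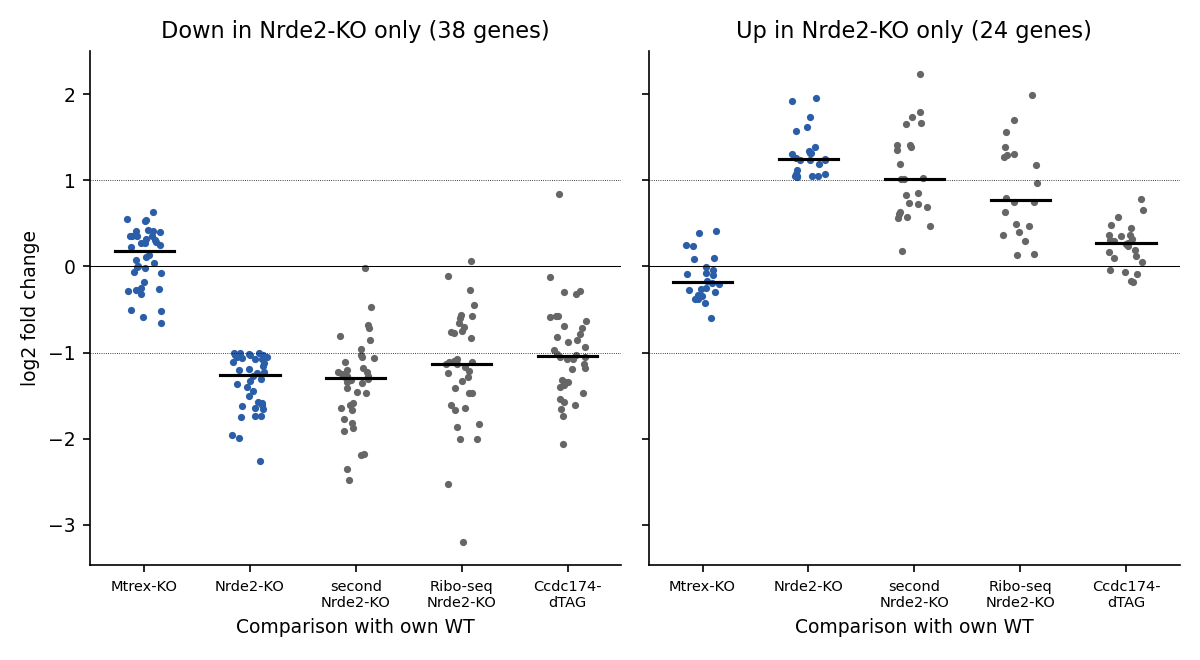
Log2 fold change of the 38 genes lowered (left) and the 24 genes raised (right) by NRDE2 loss alone, 1 point per gene, in 5 comparisons each with its own WT. Bars are medians, blue points are the effects used to choose the genes, and grey points are effects that were not, although the RNA-seq libraries among them entered the filter and the spread of the fit. On the left the medians in the second *Nrde2*-KO, Ribo-seq and *Ccdc174-dTAG* were −1.29, −1.13 and −1.04.

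MTREX loss alone raised 931 genes. Protein coding genes were 604 of the 931 (64.9%), against 87.1% of all genes tested, so noncoding genes had a larger share here than among all genes. By annotated type, the difference was called higher for 38 of 53 bidirectional promoter lncRNAs (71.7%), 128 of 226 antisense genes (56.6%), 77 of 173 processed transcripts (44.5%) and 91 of 298 lincRNAs (30.5%), against 1206 of 12968 protein coding genes (9.30%) and 11.3% of all genes. For genes at or above 0.5 CPM over the 4 WT libraries the shares were 66.7% of 42 bidirectional lncRNAs, 46.7% of 167 antisense genes, 36.5% of 148 processed transcripts, 25.7% of 249 lincRNAs and 8.62% of 12630 protein coding genes. The median NRDE2 effect of the 53 bidirectional lncRNAs was 0.11 and that of the 226 antisense genes 0.13, against MTREX effects of 2.17 and 1.69. Of the nuclear and structured RNAs on a list, *Neat1*, the scaffold of paraspeckles, was at 701 and 457 normalized CPM in *Mtrex*-KO against 77.0 and 50.2 and at 57.3 and 38.2 in *Nrde2*-KO against 59.0 and 37.1. *Neat1* shares sequence on its strand with another annotated gene. *Rnu11*, a snRNA of the minor spliceosome, and *Tug1* also rose with MTREX loss alone. Of the 13 genes of this list tested, the difference was called higher for 3 and lower for 0, against 11.3% and 7.31% of all genes. It was above 0 for 8 of the 13. MTREX loss raised 6 of the 13 and lowered 1.

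Many of these noncoding genes start near the start of a coding gene on the opposite strand. A noncoding gene was paired with the nearest tested protein coding gene on the opposite strand. Starts had to lie within 1000 bases on either side, which gave 301 pairs. In some pairs the 2 genes run away from each other. In others the noncoding gene starts past the start of the coding gene and runs back towards it, as for *Gm38342* and *Ube2w* (−929 bases). Both kinds are counted together. The noncoding members had a median MTREX effect of 2.18, with 238 called higher and 2 lower, and a median NRDE2 effect of 0.13, with 8 called higher and 0 lower by limma (11 and 1 by edgeR, 48 and 19 at an unadjusted p below 0.05). The difference was called higher for 217 of them and lower for 4. Their coding partners had median effects of −0.03 and −0.06, and the difference was called higher for 18 and lower for 9 of 301, shares that do not exceed those of all genes. In the 223 pairs whose noncoding gene was at or above 0.5 CPM over the WT libraries, 143 noncoding genes and 13 coding genes had a difference called higher. With CPM as deposited the medians of the difference were 1.53 for the noncoding and −0.37 for the coding genes, against −0.42 for all genes. Reads were counted by strand, so the 2 members of a pair were told apart.

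The promoters of 2 such coding genes are printed because 1 stretch of under 300 bases holds both starts. In each, the first capitals mark the 10 bases at the annotated start of the noncoding gene, which is read on the other strand and to the left, and the second capitals mark the first 10 bases of the coding gene in RefSeq. The regions are chr19:53390585-53390884 (minus strand) and chr17:29032410-29032709 (plus strand) of GRCm38.p6.
Smndc1: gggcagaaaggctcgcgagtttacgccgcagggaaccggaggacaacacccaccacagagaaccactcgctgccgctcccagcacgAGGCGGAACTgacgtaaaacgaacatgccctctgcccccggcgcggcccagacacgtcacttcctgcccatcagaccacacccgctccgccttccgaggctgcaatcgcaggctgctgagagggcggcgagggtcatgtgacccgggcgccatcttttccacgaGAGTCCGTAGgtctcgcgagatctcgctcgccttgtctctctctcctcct
Srsf3: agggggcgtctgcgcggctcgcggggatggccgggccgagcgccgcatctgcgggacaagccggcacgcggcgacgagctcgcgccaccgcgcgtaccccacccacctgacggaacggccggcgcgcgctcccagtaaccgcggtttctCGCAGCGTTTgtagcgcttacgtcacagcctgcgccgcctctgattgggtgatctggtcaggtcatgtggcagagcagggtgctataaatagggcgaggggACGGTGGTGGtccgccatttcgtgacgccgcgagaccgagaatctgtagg
*AC133451.1*, the lncRNA beside *Smndc1*, was at 22.2 and 25.5 normalized CPM in *Mtrex*-KO against 0.393 and 0.817, and at 0.361 and 0.592 in *Nrde2*-KO against 0.583 and 0.396 (difference 4.89, adjusted p = 2.8e-08). *Smndc1*, a splicing factor gene, was at 85.0 and 68.2 against 44.6 and 38.3 and at 44.4 and 37.1 against 43.6 and 39.6 (difference 0.91, below the threshold). *Gm16196*, beside the SR protein gene *Srsf3*, had an MTREX effect of 3.59 and an NRDE2 effect of −0.18.

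**Figure D4:**
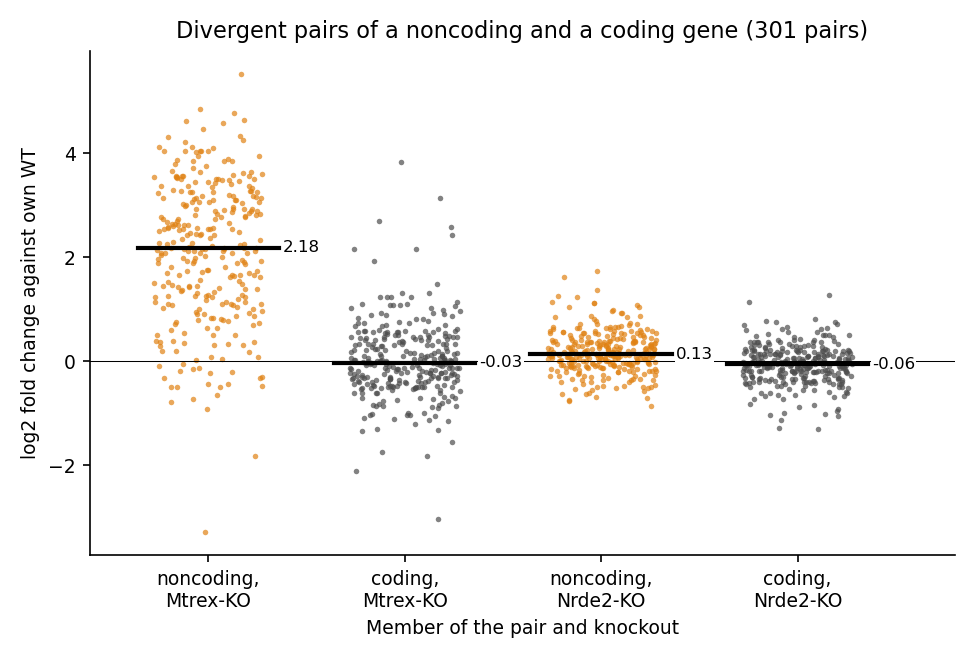
Log2 fold change of the noncoding (orange) and coding (grey) members of the 301 pairs in *Mtrex*-KO and *Nrde2*-KO, each against its own WT, 1 point per gene. The title calls all pairs divergent, but in some the 2 genes run towards each other. Bars and numbers are medians, which were 2.18 for noncoding genes in *Mtrex*-KO and between −0.06 and 0.13 in the other 3 columns.

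Among coding genes, the largest positive differences belonged to *Fgfbp1*, a carrier of fibroblast growth factors, and *S100a6*, a calcium-binding protein gene. *Fgfbp1* was at 79.3 and 65.1 normalized CPM in *Mtrex*-KO against 0.760 and 0.789, and at 1.83 and 2.46 in *Nrde2*-KO against 1.54 and 1.93 (difference 5.87, SE 0.30, adjusted p = 2.6e-09). *S100a6* was at 326 and 274 against 5.14 and 8.82, and at 4.66 and 6.52 against 5.36 and 9.13 (difference 5.75, adjusted p = 2.3e-08). *Atp12a*, a proton pump subunit gene, and *Krt19* had differences of 5.38 and 5.24, and *Thbs1*, an adhesion protein gene, 5.38. For *Thbs1* NRDE2 loss also raised the RNA, from 0.524 and 0.594 to 1.71 and 1.44 against 71.6 and 59.7 in *Mtrex*-KO. *Dusp8*, a phosphatase of stress-activated kinases, was at 17.6 and 8.68 against 0.157 and 0.136 and had an NRDE2 effect of −0.07. Its *Mtrex*-WT values lay below the minimum of 0.5 CPM, so its mean over the 20 libraries owes much to *Mtrex*-KO. The filter therefore favoured a higher value there.

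Gene lists written from general knowledge, with earlier results of these data known, are described by their counts. The trophectoderm list, genes of the outer cells of the blastocyst, had the highest median difference, 1.96 over 16 genes tested, with 10 called higher and 0 lower. Its keratin gene *Krt18* was at 224.9 and 258 normalized CPM in *Mtrex*-KO against 12.1 and 21.8, and at 29.7 and 25.1 in *Nrde2*-KO against 24.9 and 26.1. Of 16 YAP-responsive genes 10 were called higher, among them the matricellular genes *Ccn2*, at 357 and 219 against 14.5 and 12.9, and *Ccn1*, whose differences were 3.41 and 3.55. Of 19 immediate early genes 10 were higher and 1 lower, with *Jun* at 76.3 and 45.9 in *Mtrex*-KO against 4.56 and 4.46 and at 5.72 and 4.78 in *Nrde2*-KO against 4.17 and 3.74. Of 24 p53 targets 7 were higher and 0 lower. Of these genes MTREX loss raised 17 and NRDE2 loss 5, with *Perp*, a desmosomal protein gene, at 352 and 359 against 5.71 and 6.97 and at 13.0 and 10.1 against 4.86 and 4.998. Over all genes 11.3% were called higher and 7.31% lower.

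Of 9 mitochondrially encoded genes tested 6 were called higher, with a median difference of 1.70, and in *Nrde2*-KO limma and edgeR called 0 of them, also 0 at an unadjusted p below 0.05. *mt-Nd4* was at 329 and 143 in *Mtrex*-KO against 26.3 and 22.5, and at 59.5 and 43.0 in *Nrde2*-KO against 38.7 and 35.9. For *mt-Nd5* the 2 *Mtrex*-KO libraries were at 457 and 127, both above the 78.9 and 69.9 of WT but far apart, so the size of this change is poorly determined. Imprinted genes included *Cdkn1c*, a cell cycle inhibitor gene, at 13.6 and 20.3 against 1.99 and 1.71 with an NRDE2 effect of 0.28, and 6 of 23 tested were higher and 0 lower, or 4 and 3 with CPM as deposited. Germline genes were mixed, 6 higher and 2 lower of 23, or 3 and 3 with CPM as deposited, with *Taf7l*, a germ cell form of a general transcription factor subunit, at 14.5 and 12.2 against 1.10 and 0.626 and an NRDE2 effect of −0.09. In the second *Nrde2*-KO experiment, 0 of the 931 genes raised by MTREX loss alone were called higher by limma and 2 lower, against 2.34% and 2.47% of all genes. At an unadjusted p below 0.05, 139 were higher and 98 lower, and their median effect there was 0.07. The class asks for a small effect in the first *Nrde2*-KO, so few calls in the second follow largely from the choice.

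MTREX loss alone lowered 686 genes, of which 645 are protein coding (94.0%). The largest fall was that of *Nkx1-2*, a homeobox gene of the caudal epiblast, from 18.7 and 20.2 to 0.619 and 0.990 normalized CPM, with 13.5 and 14.2 in *Nrde2*-KO against 14.7 and 17.4 (difference −4.04, adjusted p = 8.3e-08). *Nupr1*, a stress-induced nuclear protein gene, fell from 11.6 and 16.2 to 0.652 and 0.792, with 22.1 and 20.2 in *Nrde2*-KO against 30.1 and 24.2 (difference −3.50, adjusted p = 2.5e-08). *Mgarp*, *Ndrg2* and *Tmem132d* fell by 3.76, 3.76 and 3.69 on the log2 scale. By the difference of effects, the 5 most negative of all genes named by rule were the somatostatin receptor gene *Sstr2* (−4.10), *Cd4*, *Mgarp* (−4.05), *Nkx1-2* and *Zscan5b* (−4.03).

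Of 26 genes of glycolysis and hypoxia tested, 8 had a difference called lower and 1 higher, against 7.31% and 11.3% of all genes. MTREX loss lowered 13 and raised 1, against 11.3% and 15.4%. In *Nrde2*-KO limma and edgeR called 0 lower, and 10 were lower at an unadjusted p below 0.05. *Aldoa* stands in this list for 2 neighbouring gene models of the same name. *Ldha*, lactate dehydrogenase, was at 82.1 and 115 normalized CPM in *Mtrex*-KO against 957 and 1117, and at 461 and 473 in *Nrde2*-KO against 777 and 707 (difference −2.74, adjusted p = 9.8e-09). *Pgk1*, *Pfkl* and *Vegfa* had differences of −2.09, −1.86 and −2.01. Of 40 genes of the ATF4 response to amino acid stress 7 were lower and 3 higher, or 15 and 2 with CPM as deposited, among the lower *Phgdh* and *Psat1* of serine synthesis, with *Psat1* at 43.7 and 53.8 in *Mtrex*-KO against 381 and 333 and at 242 and 242 in *Nrde2*-KO against 456 and 474. *Atf3* of the same list moved the other way, to 44.6 and 36.5 against 3.83 and 6.02. Of 16 Wnt targets and primitive streak genes 6 were lower and 1 higher, with *Cdx1*, a caudal homeobox gene, at 9.06 and 9.70 against 51.7 and 54.2, and *Dkk1*, a Wnt inhibitor gene, as the one that rose. Of 82 ribosomal protein genes 8 were called lower, a share near the 7.31% of all genes, with a median difference of −0.49. With CPM as deposited 35 were called lower and the median was −0.93, where that of all genes was −0.42. The direction of the median of each list named so far in the last 4 paragraphs held with TMM factors and with CPM as deposited, except for germline genes, whose median of 0.11 became −0.33 with CPM as deposited.

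The last lists are those of cholesterol synthesis, of the 2C-like state and of the partners of both proteins. Of 22 genes of cholesterol synthesis MTREX loss lowered 11 and NRDE2 loss 14, and limma, edgeR and DESeq2 called the difference for 0 of them, with 5 higher and 4 lower at an unadjusted p below 0.05. Their median difference was 0.14, and −0.30 with CPM as deposited. *Insig1*, which holds back the activation of this pathway, fell from 68.3 and 62.4 normalized CPM to 12.2 and 19.1 and from 84.0 and 79.5 to 33.7 and 36.1, with a difference of −0.86 (SE 0.19). Of 24 genes of the 2C-like state, MTREX loss raised 24 and NRDE2 loss 19, and 23 of the 24 differences were above 0 with a median of 1.29. The difference was called higher for 5 by limma, 1 by edgeR and 4 by DESeq2, where limma called 11.3% of all genes. *Zscan4f*, at 42.1 and 12.6 in *Mtrex*-KO and 2.28 and 1.48 in *Nrde2*-KO, is uncertain like other members of its family of near-identical genes, and its 2 *Mtrex*-KO libraries lay far apart. Among subunits and adaptors of the nuclear exosome, 26 tested, the difference was called lower for *Mtrex* itself and higher for *Zfc3h1*, the adaptor of the PAXT connection, which rose from 81.3 and 75.8 to 185 and 184 in *Mtrex*-KO and was at 89.2 and 77.0 in *Nrde2*-KO against 83.7 and 72.9. For 21 splicing partners and exon junction complex genes limma called 0 differences, and edgeR and DESeq2 also called 0, with 4 higher and 5 lower at an unadjusted p below 0.05 and 95% intervals that stayed between −1.38 and 1.56. For 12 genes of the TTI1-TELO2 complex and its clients the 3 tools called 0, with 4 higher and 3 lower at an unadjusted p below 0.05 and intervals between −1.20 and 1.13. With CPM as deposited the differences called lower became 3 for cholesterol synthesis, 5 for the exosome, 2 for splicing partners and 2 for the TTI1-TELO2 list.

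**Figure D5:**
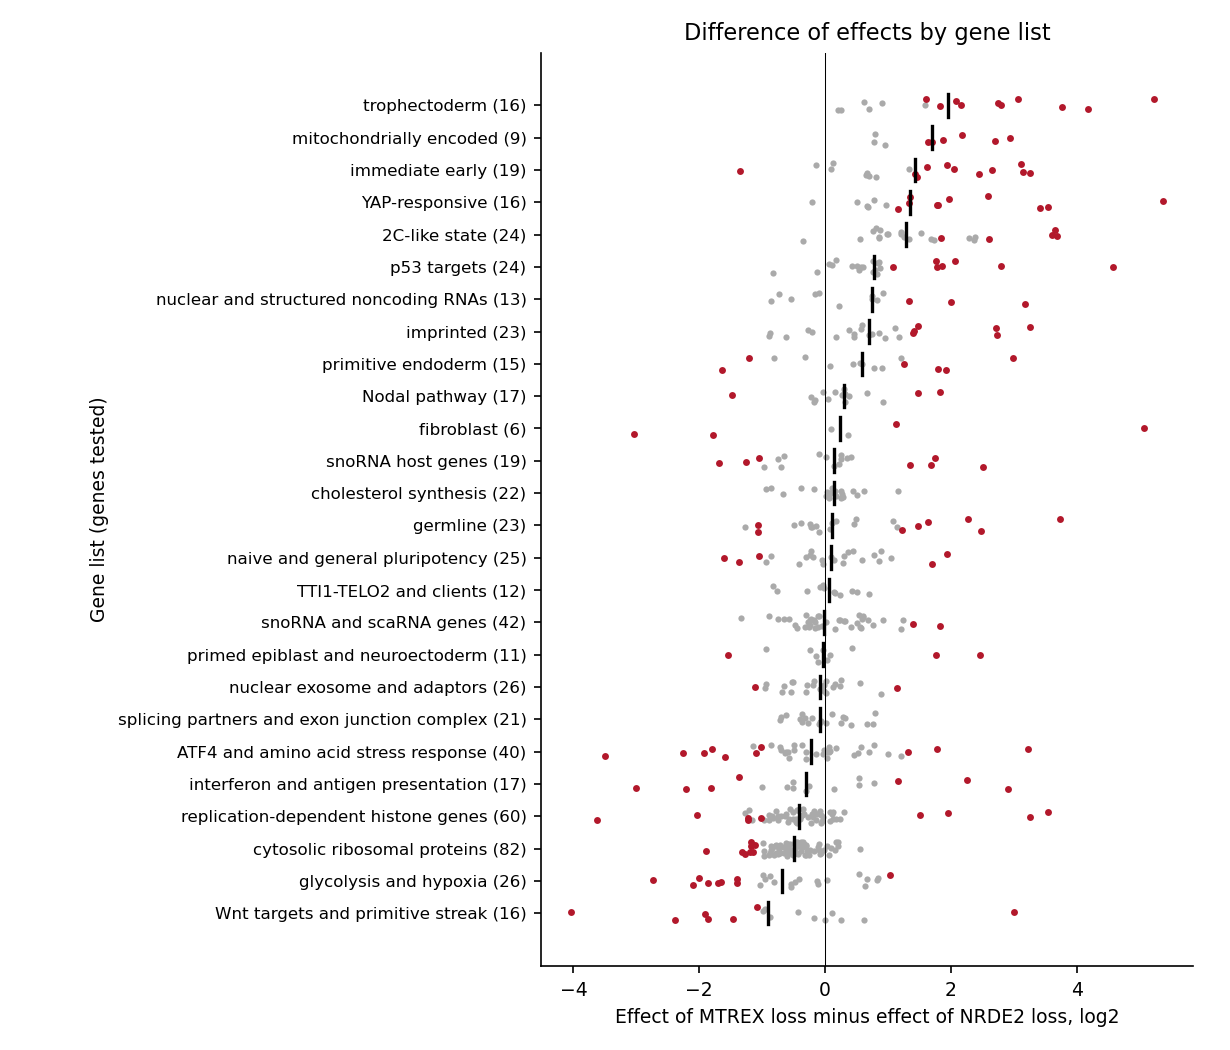
Difference of effects (log2 effect of MTREX loss minus that of NRDE2 loss) of the tested members of 26 gene lists, 1 point per gene, ordered by the median (black bar). Red points are called differences and grey points are not, and the number of genes tested follows each name. The trophectoderm list is highest with a median of 1.96, and the Wnt and primitive streak list lowest with −0.91.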

How the data were processed

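RNA-seq of rRNA-depleted total RNA from mESCs was used, with 2 libraries in each of *Mtrex*-WT, *Mtrex*-KO, *Nrde2*-WT and *Nrde2*-KO. Reads were mapped by the authors with STAR (2.7.3a) to mm10, and featureCounts assigned those with 1 position and the right strand to GENCODE genes. The deposited CPM are relative to a total larger than the reads in genes. All CPM values came out as whole reads (100% within 0.1 of a whole number), with 28767829 to 33814363 reads in genes in these libraries and 3475051 to 5035940 in Ribo-seq. Groups were taken from the sample labels. Symbols and annotation come from a GENCODE M21 table, which held 55154 of the 55335 genes.

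CPM were divided by median-of-ratios factors and log2(CPM + 0.25) was fitted with limma (3.58.1) in R (4.3.3), with a mean-variance trend, over 20 libraries in 10 groups. Log2 fold changes are therefore on the log2(CPM + 0.25) scale, which understates changes of low genes. Adjusted p-values are Benjamini-Hochberg values from limma over 14889 genes. The methods of the study used DESeq2 on counts. Since CPM were deposited, edgeR (4.0.16) and DESeq2 (1.42.0) on recovered reads were alternatives, beside other pseudocounts, filters, scalings, the replicate block and leaving out each library. The fit was tested on simulated data. Genes were named by rule: the targeted genes, the 5 largest differences in each direction, up to 8 opposite genes in each direction, 5 one-sided genes in each direction, and up to 4 of each of 26 lists. A gene that this rule picks is not reported here. Other genes were named after their values were seen. The members and lists were chosen with earlier results of these data known.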

Additional observations from a re-analysis of the deposited data

How the results depend on the processing

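The number of genes whose effects differed, 2775, stayed between 2371 and 3627 under the 20 alternatives run. The number of opposite genes was the least stable. It was 32, and became 8 with a pseudocount of 1, 15 with no filter on low values, and between 14 and 38 when 1 library was left out, with 14 and 20 without *Nrde2*-WT replicate 1 or 2 and 18 and 16 without *Nrde2*-KO replicate 1 or 2. Of the 16 opposite genes that rose in *Mtrex*-KO, 3 kept their class under all 20 alternatives, and of the 16 that fell, 1 did. Genes of NRDE2 loss alone numbered 62, 39 with a pseudocount of 1, and between 50 and 69 with 1 library left out. Of the 38 that fell, 6 kept their class under all 20 alternatives and 27 under at least 15, and of the 24 that rose, 1 and 8 did. Genes of MTREX loss alone numbered 1617, and between 1227 and 1911 with 1 library left out. With CPM as deposited, 560 genes rose and 1638 fell with MTREX loss alone in place of 931 and 686, and 48 rose and 22 fell with NRDE2 loss alone in place of 24 and 38, so the direction of one-sided counts depends on the scaling. With the replicate number as a block the counts were 3048 differences, 36 opposite genes, 1837 genes of MTREX loss alone and 82 of NRDE2 loss alone. Deviations of same-numbered KO and WT libraries correlated at 0.42 and 0.27 in the compared lines and at 0.12 in the second *Nrde2* experiment. No label names a shared batch, so whether the numbers pair the samples is not settled, and the block moved none of the 4 counts by over 1.5 times. A filter on the WT libraries, chosen after seeing the data, gave 2492, 30, 1494 and 60. Over the 141 genes named by rule and these alternatives, 2687 values stayed on their side of the threshold in the same direction, 82 lost the call, 29 gained one and none changed sign. The cause of these shifts was not tested.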
